A study of Homo sapiens with 22 samples.

Results

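Accessible chromatin of the multiple myeloma line KMS11 was compared between day 10 and day 4 of exposure to NSD2LDD, an agent that the series' design text describes as inducing degradation of NSD2. The members are the 48668 regions obtained by merging the ATAC-seq peaks called on the 22 autosomes and X in the 4 NSD2LDD libraries (2 at day 10 and 2 at day 4), of 96160 regions when the lists of all 22 libraries of the series are merged. The 4 KMS11 libraries in the vehicle DMSO, 2 at day 10 and 2 at day 4, gave the change over the same days without the degrader. All 8 carry the genotype label t(4;14) and come from 1 cell line described as bone marrow, grown in RPMI medium with fetal bovine serum, with compound renewed in fresh medium every few days. Other groups were used only to look the regions up: 2 KMS11 libraries labelled TKO in place of t(4;14), 2 untreated KMS11 libraries at day 0, and 10 libraries of a second t(4;14) line, KMS34, under NSD2LDD, DMSO or no treatment. The sources used here explain neither the label TKO nor the NSD2LDD concentration. The titles call the libraries of a group duplicates without saying whether they were separate cultures. Every p-value therefore rests on the spread between these libraries, and that spread may be technical.

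NSD2 is a histone methyltransferase that dimethylates lysine 36 of histone H3, a mark of active and intergenic euchromatin that limits the spread of the repressive lysine 27 methylation laid down by the Polycomb repressive complex. The t(4;14) translocation places NSD2 and its neighbour FGFR3, a receptor tyrosine kinase gene, under immunoglobulin heavy chain enhancers, and overexpressed NSD2 spreads the lysine 36 mark over broad domains in myeloma cells. ATAC-seq uses a transposase to cut and tag open DNA, so that promoters, enhancers and other unprotected sites appear as peaks. In bulk libraries, fewer cells with an open site and a less open site in every cell cannot be told apart.

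The 4 NSD2LDD lists held 35825 and 37695 peaks at day 10 (replicates 1 and 2) and 35388 and 37502 peaks at day 4. They covered 17.95 and 27.1 Mb at day 10 and 22.6 and 24.3 Mb at day 4, with median peak widths of 417 and 633 bp at day 10 and 575 and 577 bp at day 4. The 2 day 10 libraries thus lay on either side of the day 4 pair in covered length, and the DMSO libraries showed the same pattern (17.9 and 26.7 Mb at day 10, 21.5 and 22.4 Mb at day 4). The lists hold no read counts, so depth is unknown and a site without a peak cannot be told from a site too shallow to call. Of 9 defining plasma cell genes, 8 were covered by peaks in each of the 4 libraries (IRF4, PRDM1, XBP1, TNFRSF17, SDC1, CD38, POU2AF1 and MZB1), while SLAMF7 had no peak in any of them.

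**Figure D1:**
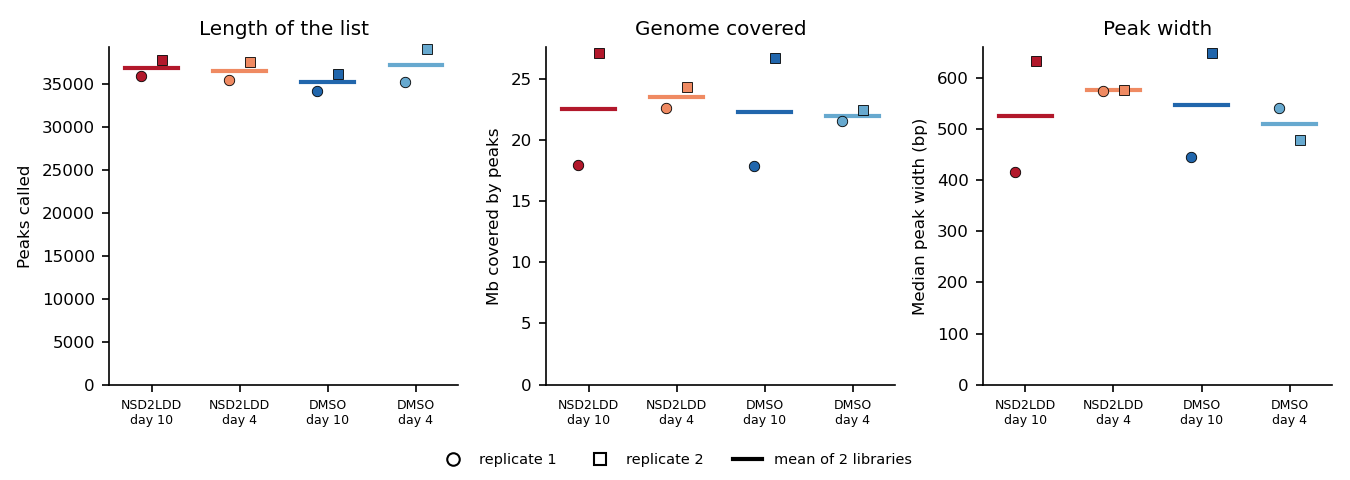
Peaks called, Mb covered by peaks and median peak width in bp for each KMS11 library under NSD2LDD and DMSO at day 10 and day 4. Circles are replicate 1, squares replicate 2 and bars the mean of 2 libraries. The 17.9 to 27.1 Mb covered in the 4 day 10 libraries span a wider range than the 21.5 to 24.3 Mb of the 4 day 4 libraries.

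Promoter sequences are shown first for the few gene starts that the lists placed entirely on 1 of the 2 days. Each start was given a window of 250 bases before and 50 after it, and 34961 RefSeq starts were used (GRCh38.p14). Of these windows, 13616 (39.0%) met a peak in all 4 NSD2LDD libraries, 62 (0.177%) in both day 10 and neither day 4 library, and 101 (0.289%) in neither day 10 and both day 4 libraries. The DMSO lists gave 44 (0.126%) and 55 (0.157%) such windows. Printed here are the sequences of named genes whose whole window of 300 bp was covered in both libraries of 1 day and uncovered in both of the other, a choice made after the values were seen. They give the 250 bases before the start, and capitals mark GGGCGG, the GC box bound by Sp-family factors, on either strand, where adjacent boxes may run together.
TMEM107: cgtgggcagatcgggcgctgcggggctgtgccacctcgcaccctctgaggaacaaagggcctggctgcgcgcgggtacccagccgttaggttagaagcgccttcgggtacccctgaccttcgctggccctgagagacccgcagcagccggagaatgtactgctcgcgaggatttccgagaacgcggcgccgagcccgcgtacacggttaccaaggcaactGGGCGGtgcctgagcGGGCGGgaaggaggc
MAZ: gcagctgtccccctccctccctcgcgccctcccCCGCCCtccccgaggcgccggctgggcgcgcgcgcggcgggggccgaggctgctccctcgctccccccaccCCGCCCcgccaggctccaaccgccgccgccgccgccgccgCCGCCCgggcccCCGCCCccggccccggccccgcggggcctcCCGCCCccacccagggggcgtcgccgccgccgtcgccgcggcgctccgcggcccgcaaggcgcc
JDP2: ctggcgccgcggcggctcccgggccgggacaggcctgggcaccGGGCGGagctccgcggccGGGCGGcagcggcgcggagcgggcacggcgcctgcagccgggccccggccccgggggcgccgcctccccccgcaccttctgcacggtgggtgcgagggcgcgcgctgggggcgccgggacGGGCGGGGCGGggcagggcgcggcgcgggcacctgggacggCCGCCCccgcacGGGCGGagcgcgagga
SV2B: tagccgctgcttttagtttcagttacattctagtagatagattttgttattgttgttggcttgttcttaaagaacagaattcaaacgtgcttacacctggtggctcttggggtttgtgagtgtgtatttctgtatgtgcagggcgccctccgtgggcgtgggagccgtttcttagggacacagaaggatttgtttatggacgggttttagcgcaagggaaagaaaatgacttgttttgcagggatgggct

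The window of TMEM107 (printed stretch chr17:8176381-8176630, minus strand) was covered by 300 and 300 bp at day 10 and 0 and 0 bp at day 4. TMEM107 encodes a membrane protein of the ciliary transition zone. The other 3 windows had no peak at day 10 and 300 bp in both day 4 libraries. MAZ (printed stretch chr16:29806279-29806528, plus strand) encodes a zinc finger factor that binds GC-rich promoters, JDP2 (printed stretch chr14:75428107-75428356, plus strand) a dimerization partner and repressor of AP-1, and SV2B (printed stretch chr15:91100701-91100950, plus strand) a synaptic vesicle glycoprotein. The 4 windows were chosen for complete separation by day under NSD2LDD, so DMSO could not separate them more. In DMSO, JDP2 and SV2B kept the same order without overlap, while TMEM107 and MAZ overlapped between the days. TMEM107 had 145 and 300 bp at day 10 and 300 and 147 bp at day 4, MAZ had 226 and 0 bp at day 10 and 209 and 111 bp at day 4, JDP2 had 190 and 35 bp at day 10 and 219 and 300 bp at day 4, and SV2B had 0 and 282 bp at day 10 and 300 and 300 bp at day 4. The window of LOC124900752, an uncharacterised gene, also had no peak at day 10 and 300 bp in both day 4 libraries, and its DMSO values were 180 and 300 bp at day 10 and 300 and 300 bp at day 4. The GC content of the printed stretches was 68.0% for TMEM107, 88.8% for MAZ, 87.2% for JDP2 and 45.2% for SV2B. The GC box occurred in the first 3 and not in SV2B, and in 42.7% of all 34961 windows. No match was found in these 4 stretches, on either strand, for TGANTCA (AP-1, in 6.54% of all windows), TGACGTCA (CRE, 1.65%), CACGTG (E-box, 6.35%), ATGCAAAT (octamer, 1.63%) or CCGGAAG (ETS, 8.52%).

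Most of the accessible landscape was shared between the days. Peaks were called in all 4 NSD2LDD libraries at 26021 regions (53.5%), in exactly 3 at 5321, in exactly 2 at 5738 and in exactly 1 at 11588. Regions called in both day 10 and neither day 4 library numbered 1096 (2.25%), and regions called in neither day 10 and both day 4 libraries numbered 1381 (2.84%). The same rule on the 47428 regions merged from the 4 DMSO lists gave 656 (1.38%) at day 10 only and 1316 (2.78%) at day 4 only. These counts are calls and carry no test.

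The regions called on 1 day only lay away from gene starts. Outside chromosome 8, for which gene starts were not used here, 24.4% of all regions lay within 1 kb of an annotated start, against 5.43% of the day 10 only and 5.49% of the day 4 only regions. Bodies of protein-coding genes held 51.2% of the day 10 only and 45.6% of the day 4 only regions, against 39.6% of all regions. Sites over 50 kb from any protein-coding gene and outside other genes made up 12% of the day 10 only and 20.5% of the day 4 only regions, against 11.3% of all. Within genes, the median length of the surrounding gene was 110 kb for day 10 only and 182 kb for day 4 only regions, against 85.0 kb for all regions. Of the regions near gene starts, 9878 of 11280 (87.6%) were called in all 4 libraries, against 8055 of 18361 (43.9%) in coding gene bodies. Placement was not compared with other regions called in some but not all libraries, so it is not shown to be particular to a day. The genes holding 3 or more day 4 only regions were DLG2 with 5 of its 38 regions, PRUNE2 with 3 of 18 and DCC with 3 of 14. DLG2 encodes a postsynaptic scaffold protein and DCC the netrin receptor of axon guidance. Those holding 3 or more day 10 only regions were GSE1 with 4 of 15, which also held 1 day 4 only region, and BICD1, a dynein adaptor gene, with 3 of 9.

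These day-restricted peaks were weak ones. By the authors' -log10 q, their median percentile within each list was 22.3 and 23.5 in the 2 day 10 libraries (day 10 only regions) and 17.96 and 19.9 in the 2 day 4 libraries (day 4 only regions). Peaks of regions called in all 4 libraries had medians of 60.8 and 65.0 at day 10 and 62.3 and 64.4 at day 4. The part of weak calling in the day-restricted counts was not tested.

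Libraries that had no part in choosing these regions were then examined. Of the day 10 only regions, DMSO day 10 libraries had a peak at 43.7% and 49.4%, and DMSO day 4 libraries at 29.0% and 46.3%. Of the day 4 only regions, DMSO day 10 libraries had a peak at 27.8% and 47.4%, and DMSO day 4 libraries at 61.4% and 65.2%. The day 10 only share minus the day 4 only share was therefore 15.9 and 1.93 percentage points in DMSO at day 10 and -32.4 and -18.9 points in DMSO at day 4, without overlap between the days. Exact permutation of 2 libraries against 2 cannot go below a two-sided p of 0.33, so no test was made. Day 10 minus day 4 in DMSO was thus 34.6 points on average, and 18.2 to 24.6 points when the sets were chosen with any 1 NSD2LDD library left out. The day 10 only pattern recurred whole in DMSO (both day 10 and neither day 4 library) at 74 of 1096 regions (6.75%) and was turned round at 31 (2.83%). The day 4 only pattern recurred whole at 200 of 1381 regions (14.5%) and was turned round at 23 (1.67%). Over all regions merged from the DMSO lists, the day 10 only pattern held at 1.38% and the day 4 only pattern at 2.78%.

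Each TKO library had a peak at a larger share of the day 10 only than of the day 4 only set, and each untreated KMS11 library the reverse. TKO libraries had a peak at 35.5% and 24.4% of the day 10 only regions, against 42.7% and 9.22% in day 0 libraries. TKO libraries had a peak at 15.6% and 6.88% of the day 4 only regions, against 52.5% and 22.7% in day 0 libraries. Both sets lay below the share of all 48668 regions with a peak in the same library, which was 57.2% and 49.5% in TKO and 67.3% and 47.4% at day 0. The difference between the sets was 19.9 and 17.5 points in TKO and -9.80 and -13.5 points at day 0, a contrast of 30.3 points that was 13.1 to 28.4 with any 1 NSD2LDD library left out of the choice. In KMS34 the day 4 only set had the higher share in all 10 libraries, and the difference was -12.7 ± 3.33 points at day 10 and -15.1 ± 3.50 points at day 4 (mean ± SD, n = 4 libraries each, NSD2LDD and DMSO together). Day 10 and day 4 did not differ there beyond this spread (2.40 points, exact permutation p = 0.343, two-sided, 0.619 after adjustment over 5 such tests).

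**Figure D2:**
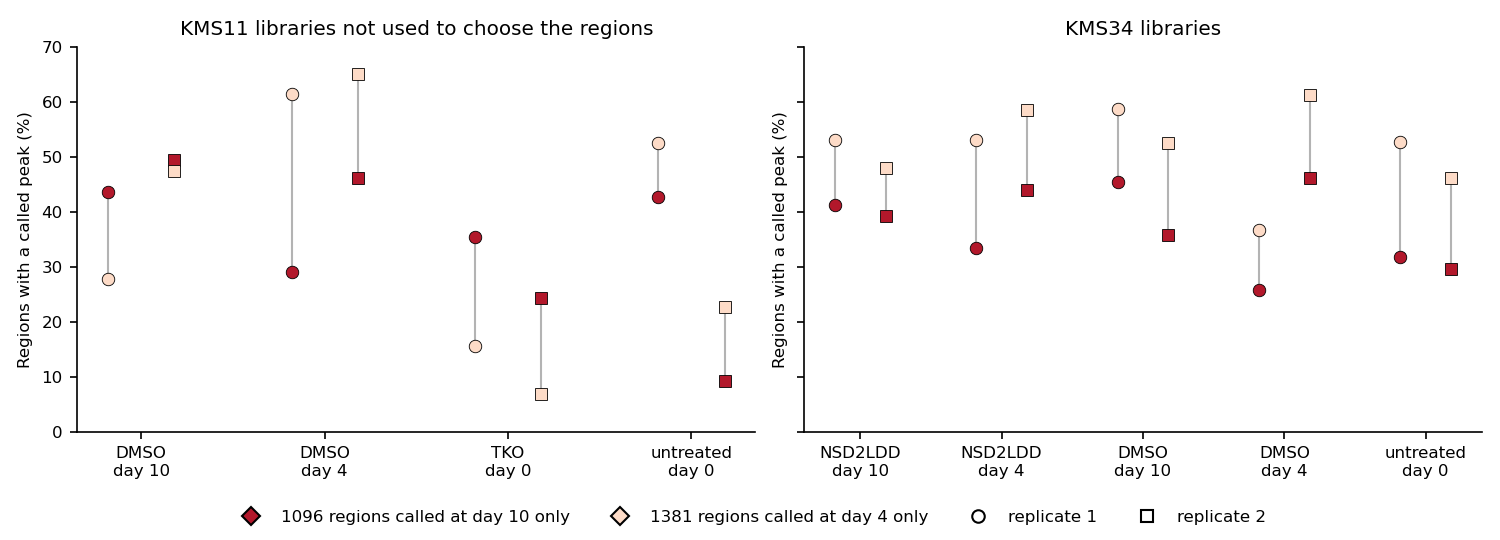
Share, in %, of the 1096 regions called at day 10 only (dark) and the 1381 called at day 4 only (pale) under NSD2LDD in KMS11 that had a peak in each library not used to choose them. Each vertical line joins the 2 shares of 1 library, circles are replicate 1 and squares replicate 2. The dark point lies above the pale one in the DMSO day 10 and TKO libraries of KMS11 and below it in every other library shown.

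Most day 4 only regions with a peak before treatment had none in TKO. Of the 257 day 4 only regions called in both day 0 libraries, 216 (84.1%) had no peak in either TKO library, against 30 of 74 day 10 only regions (40.5%). The share was 75.5% (160 of 212) for regions called in exactly 1 of the 4 NSD2LDD libraries, 8.23% (1685 of 20463) for regions called in all 4 and 12% (2669 of 22189) for all regions. Of the 175 day 10 only regions called in both TKO libraries, 86 (49.1%) had no peak in either day 0 library, against 22 of 54 day 4 only regions (40.7%) and 4.55% (1008 of 22178) of all regions. Sparsely called regions of either day were thus also often without a TKO peak.

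Read from the TKO side, the 2669 regions called in both day 0 and neither TKO library had peaks in a smaller share at day 10. NSD2LDD libraries had peaks at 78.0% and 78.6% of them at day 10, against 89.5% and 92.0% at day 4. DMSO libraries had peaks at 78.8% and 87.0% at day 10, against 91.2% and 92.7% at day 4. Over both treatments the share was 80.6% ± 4.31 at day 10 and 91.4% ± 1.36 at day 4 (mean ± SD, n = 4 libraries each), lower in 4 of 4 day 10 libraries than in any day 4 library. This gave an exact permutation p of 0.0286, the smallest that 4 against 4 allows. After adjustment over the 5 tests it was 0.143, the least that a single test at this floor could give among 5. The other tests had exact permutation p from 0.343 to 0.657. The test treats the 4 libraries of a day as independent units. Same-numbered day 10 libraries of NSD2LDD and DMSO deviated together (correlation 0.20 over regions), so the independent units may be fewer. The 1008 regions with a peak in each TKO library and none at day 0 had peaks at 62.2% and 80.3% under NSD2LDD at day 10, against 53.8% and 63.6% at day 4, and at 50.0% and 62.7% in DMSO at day 10, against 46.5% and 61.2% at day 4. The day 10 and day 4 shares of these overlapped (63.8% ± 12.5 and 56.3% ± 7.73, exact permutation p = 0.371, n = 4 each), and their NSD2LDD difference of 12.5 points was 1.59 when at least 50% of a region had to be covered and 3.52 to 21.6 with any 1 NSD2LDD library left out. The 17736 regions called in all 4 TKO and day 0 libraries had peaks at 99.1% and 99.6% under NSD2LDD at day 10 and at 99.2% and 99.6% at day 4. In KMS34 neither set differed between the days beyond the spread (55.6% ± 6.16 at day 10 and 57.5% ± 8.03 at day 4 for the first, exact permutation p = 0.657, n = 4 each, and 53.1% ± 4.81 and 49.4% ± 9.16 for the second, p = 0.543).

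**Figure D3:**
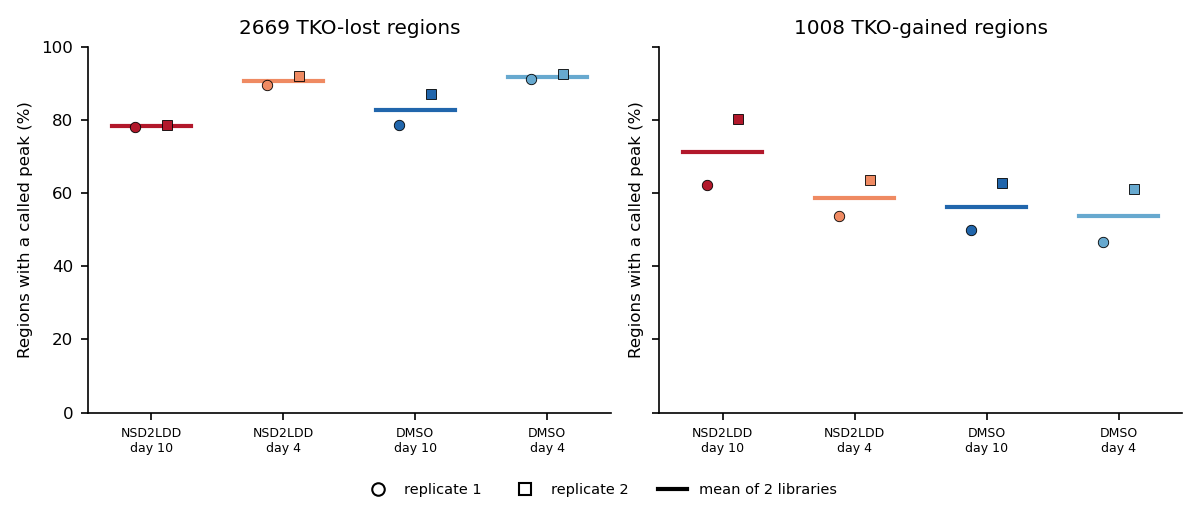
Share, in %, of the 2669 regions called at day 0 and not in TKO (TKO-lost, left) and of the 1008 called in TKO and not at day 0 (TKO-gained, right) that had a peak in each KMS11 library under NSD2LDD and DMSO. Circles are replicate 1, squares replicate 2 and bars the mean of 2 libraries. On the left the 4 day 10 libraries (78.0% to 87.0%) lie below the 4 day 4 libraries (89.5% to 92.7%), and on the right the days overlap.

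Covered length was next tested region by region, over the 37080 regions called in at least 2 of the 4 NSD2LDD libraries. The value was the bases of a region covered by peaks, as log2 after adding 100 bp, and limma was fitted to the 8 NSD2LDD and DMSO libraries with 4 group means. At a Benjamini-Hochberg adjusted p under 0.05, 3 regions were lower at day 10 than at day 4 under NSD2LDD (0.00809% of those tested) and 0 were higher (0.0%). At an unadjusted p under 0.05 there were 2307 lower (6.22%) and 1664 higher (4.49%). The 3971 together made up 10.7%. In DMSO 0 regions passed in limma, with 927 lower (2.5%) and 538 higher (1.45%) at an unadjusted p under 0.05, together 3.95%. For the NSD2LDD change minus the DMSO change 0 passed in limma (smallest adjusted p = 0.117), with 771 lower (2.08%) and 638 higher (1.72%) at an unadjusted p under 0.05, together 3.8%, so no region was shown to change differently under the degrader. The median log2 difference over all tested regions was 0.013 under NSD2LDD and -0.0071 in DMSO. These regions entered by NSD2LDD calls alone, so the NSD2LDD and DMSO shares were not drawn alike. Regions called on 1 day only passed this filter through that day. The regions nearest SOX9 and DMRTA1, described below, passed it only through day 4. With a call in at least 3 of 4 NSD2LDD libraries required, those regions were not tested. Then 31342 regions were tested and 0 passed in limma, with 1793 under NSD2LDD and 1117 in DMSO at an unadjusted p under 0.05. When the 8 lists were merged and a call in at least 2 of 8 was required, 42473 regions were tested. Of these, 3603 under NSD2LDD and 2155 in DMSO had an unadjusted p under 0.05 in limma.

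The first of the 3 falls was at chr17:72004983-72005973 (hg38), an intergenic site 115046 bp from SOX9, a transcription factor gene of cartilage and stem cell fate, and 20006 bp from the start of the lncRNA ROCR. Peaks covered 0 and 0 bp of it under NSD2LDD at day 10, against 979 and 986 bp at day 4. DMSO libraries had 754 and 991 bp at day 10, against 667 and 608 bp at day 4. TKO libraries had 877 and 51 bp, against 347 and 575 bp in untreated day 0 libraries, so that of the 12 KMS11 libraries the 2 of NSD2LDD at day 10 had no peak there. All 10 KMS34 libraries had 0 bp. The limma adjusted p was 0.0171 for the NSD2LDD change and 0.117 for its difference from the DMSO change.

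The second fall, at chr9:22683011-22684177, lay inside the lncRNA genes LINC01239 and LOC107987054 and 227270 bp from the nearest protein-coding gene, DMRTA1, which encodes a DM-domain transcription factor. It had 0 and 0 bp under NSD2LDD at day 10, against 1063 and 948 bp at day 4 (limma adjusted p = 0.0339). DMSO libraries had 438 and 1003 bp at day 10, against 868 and 998 bp at day 4. TKO libraries had 0 and 0 bp, against 523 and 614 bp at day 0. All 10 KMS34 libraries had peaks there, from 722 to 1167 bp.

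The third fall, at chr9:105259405-105260397, lay inside SLC44A1, a choline transporter gene. It had 215 and 312 bp under NSD2LDD at day 10, against 895 and 983 bp at day 4, a log2 difference of -1.47 ± 0.14 (SE, limma adjusted p = 0.0439). DMSO libraries had 720 and 993 bp at day 10, against 993 and 993 bp at day 4. TKO libraries had 0 and 155 bp, against 494 and 466 bp at day 0. For the first 2 sites no fold is given, because the fitted difference of a site without peaks depends on the 100 bp added.

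These 3 calls depended on the libraries in the fit and on the processing. All 3 were lost when any 1 of the 4 DMSO libraries was left out (limma adjusted p from 0.174 to 0.371 over the 3 regions). They were also lost with the 4 NSD2LDD libraries alone (0.583 for each), without scaling and with only peaks of -log10 q of 5 or more, each of which gave 0 calls. Without NSD2LDD day 10 replicate 2, 181 regions were called lower and 1 higher, while without replicate 1 of that group 1 was called and without either NSD2LDD day 4 library 0. With an NSD2LDD day 4 library left out, the regions nearest SOX9 and DMRTA1 had a peak in only 1 NSD2LDD library. They then fell under the filter of 2 libraries and were not tested, so that count of 0 says nothing of them. Without limma's trend and robust options 533 were lower and 402 higher, and with all 22 libraries in the fit 691 were lower and 429 higher.

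**Figure D4:**
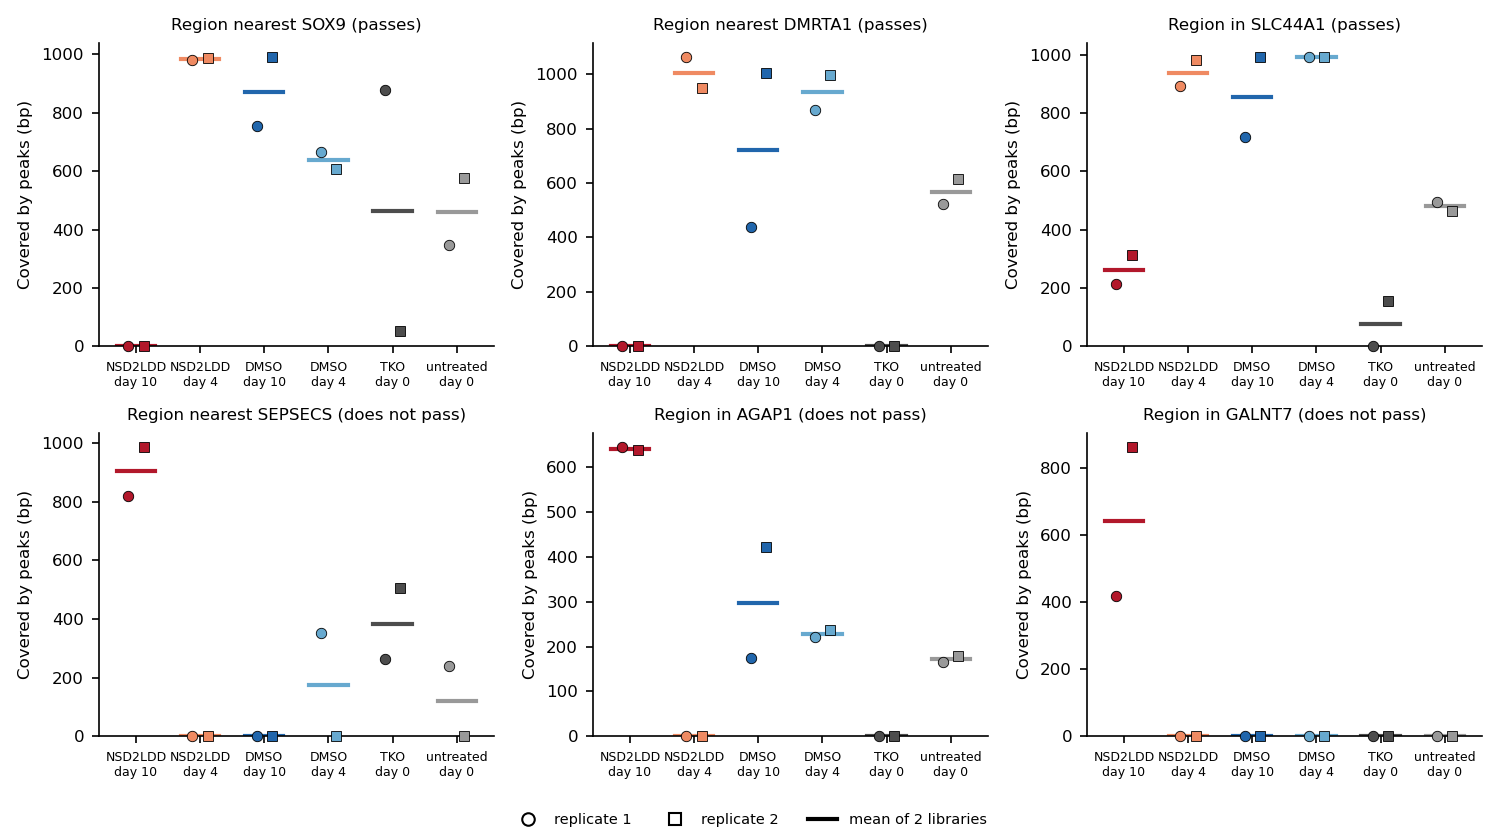
Bases covered by called peaks, in bp, at 6 regions in each KMS11 library: the 3 regions that were lower at day 10 under NSD2LDD (top) and 3 of the largest regions called at day 10 only, which did not pass the test (bottom). Circles are replicate 1, squares replicate 2 and bars the mean of 2 libraries. The regions nearest SOX9 and DMRTA1 have no peak in both NSD2LDD day 10 libraries and 948 to 1063 bp in the day 4 libraries.

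The next regions by p did not pass, and were chosen after their values were seen. A site in PDE1C, a calmodulin-dependent cyclic nucleotide phosphodiesterase gene (chr7:32036397-32038078), had 386 and 564 bp at day 10, against 1368 and 1437 bp at day 4 (log2 difference -1.35 ± 0.15 SE, limma adjusted p = 0.114). It had no peak in either TKO library, against 879 and 596 bp at day 0. Sites in SPATA13 (chr13:24096892-24097910) and in SPOCK1, a proteoglycan gene (chr5:137054332-137055336), had 0 and 0 bp at day 10, against 1010 and 683 bp and 727 and 844 bp at day 4 (limma adjusted p = 0.202 for both), and no TKO peak. Of the 12 lower regions with the smallest p, 9 had no peak in either TKO library (75.0%) and 9 had a peak in both day 0 libraries (75.0%), against 24.9% and 59.3% of all tested regions. Of the 12 higher regions with the smallest p, 5 had no TKO peak (41.7%) and 5 had a peak in both day 0 libraries (41.7%). Among those with a peak in both day 0 libraries, 6 of 9 lower regions (66.7%) had no TKO peak. This share was 3 of 5 for the higher regions (60.0%) and 11.4% for all tested regions. So few regions cannot tell the 2 directions apart, and the wider sets given below differed more between the directions.

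Among the 6 largest day 10 only regions, given as a description, 3 lay in genes and did not pass. The site in AGAP1, a GTPase-activating protein gene (chr2:235614230-235614884), had 645 and 638 bp at day 10, against 0 and 0 bp at day 4. The site in GALNT7, a glycosyltransferase gene (chr4:173205743-173206606), had 419 and 864 bp at day 10, against 0 and 0 bp at day 4, and no peak in any other library of the series. The site in SLC12A7, a potassium-chloride cotransporter gene (chr5:1151349-1152445), had 309 and 1097 bp at day 10, against 0 and 0 bp at day 4. The intergenic site nearest SEPSECS (chr4:25099466-25100451) had 819 and 986 bp at day 10, against 0 and 0 bp at day 4, with 264 and 504 bp in TKO, against 240 and 0 bp at day 0. The sites nearest PPP1R2C (chrX:42920460-42921640, at the start of the lncRNA LOC105373188) and ITGA3, an integrin gene (chr17:50026937-50027750), had 205 and 1181 bp and 419 and 814 bp at day 10, against 0 bp in both day 4 libraries. The limma adjusted p was 0.417 for all 6, and DMSO libraries had peaks at 5 of the 6, GALNT7 being the exception.

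The wider sets past an unadjusted p, which are no calls, were looked up in the same way. They were chosen on the NSD2LDD values, so larger medians under NSD2LDD than in DMSO follow at least in part from that choice. These medians are thus no comparison of the treatments. The 2307 lower regions had a median log2 difference of -1.85 under NSD2LDD and -0.22 in DMSO, and 76.4% had the same sign in DMSO. The 1664 higher regions had medians of 1.77 and 0.09, and 59.0% had the same sign, against 57.8% of all tested regions. Gene starts made up 11% of the lower and 29.9% of the higher regions, against 30.3% of all tested. Of the lower regions called in both day 0 libraries, 466 of 1045 (44.6%) had no peak in either TKO library, against 42 of 684 (6.14%) of the higher regions and 2509 of 21977 (11.4%) of all tested. Among regions called in all 4 NSD2LDD libraries these shares were 157 of 643 (24.4%) for the lower, 13 of 605 (2.15%) for the higher and 8.23% for all. The reverse share, no day 0 peak among regions called in both TKO libraries, was 96 of 827 (11.6%) for the higher and 30 of 542 (5.54%) for the lower regions, against 3.61% of all tested.

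Per gene, the covered bases within the gene and 5 kb either side were tested for 14957 of 19974 protein-coding genes, those covered in at least 2 of the 4 NSD2LDD libraries. In limma 0 genes passed under NSD2LDD (0.0%, smallest adjusted p = 0.516), with 659 lower (4.41%) and 321 higher (2.15%) at an unadjusted p under 0.05, together 6.55%. None passed in DMSO, with 330 lower (2.21%) and 238 higher (1.59%) at an unadjusted p under 0.05, together 3.8%. None passed for the difference of the changes, with 1.8% lower and 1.14% higher, together 2.94%. The tested genes, too, entered by NSD2LDD calls alone. Gene windows can overlap, so that neighbours share peaks. Named genes are therefore given with their values and with no call, those with the smallest p whose 2 day 10 libraries lay wholly below or above the 2 day 4 libraries.

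Among genes with fewer covered bases at day 10, TUSC3, which encodes a subunit of the oligosaccharyltransferase complex of the endoplasmic reticulum, had 0 and 0 bp at day 10, against 636 and 866 bp at day 4. In DMSO it had 667 and 1337 bp at day 10, against 234 and 418 bp at day 4, the opposite order. PDE1C had 550 and 1386 bp at day 10, against 2878 and 3292 bp at day 4 (log2 difference -1.60 ± 0.23 SE). RXRG, a retinoid X receptor gene, had 223 and 656 bp at day 10, against 1401 and 1463 bp at day 4 (-1.46 ± 0.24). ASIP, which encodes the agouti signalling protein, had 362 and 528 bp at day 10, against 1041 and 1310 bp at day 4 (-1.11 ± 0.18). CARD10, a scaffold gene of NF-kappaB signalling, had 628 and 729 bp at day 10, against 1231 and 1442 bp at day 4 (-0.82 ± 0.15). SPOCK1 had 0 and 233 bp at day 10, against 727 and 1089 bp at day 4. CCDC62 had 0 and 0 bp at day 10, against 600 and 733 bp at day 4, and NEB, the gene of the muscle protein nebulin, 0 and 0 bp, against 708 and 829 bp. The same order held for IFNA1, an interferon alpha gene with near-identical neighbours (0 and 0 bp, against 605 and 583 bp), and the read-through gene CCDC169-SOHLH2 (462 and 487 bp, against 1083 and 1514 bp). Several of these genes also fell in DMSO. There NEB had 0 and 0 bp at day 10, against 549 and 881 bp at day 4, and CCDC169-SOHLH2 251 and 375 bp, against 977 and 1099 bp. Only TUSC3 and ASIP among these genes had a DMSO difference of the opposite sign.

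Among genes with more covered bases at day 10, NPL, a sialic acid lyase gene, had 1171 and 1701 bp at day 10, against 710 and 800 bp at day 4 (0.74 ± 0.14). POU2F2, the gene of the B cell octamer-binding factor OCT2, had 1281 and 1867 bp at day 10, against 608 and 763 bp at day 4 (0.97 ± 0.20). Its DMSO values were 1123 and 1258 bp at day 10, against 580 and 1063 bp at day 4. GLRB, a glycine receptor subunit gene, had 724 and 954 bp at day 10, against 288 and 232 bp at day 4 (1.15 ± 0.27). MCM8, a DNA helicase gene of recombination repair, had 836 and 1423 bp at day 10, against 615 and 660 bp at day 4 (0.61 ± 0.14). ADCK1 had 1001 and 1405 bp at day 10, against 670 and 607 bp at day 4 (0.71 ± 0.13), and SAMD11 1564 and 2072 bp, against 1072 and 1115 bp (0.61 ± 0.13). CAMK2N2, which encodes an inhibitor of the kinase CaMKII, had 874 and 1349 bp, against 638 and 569 bp (0.67 ± 0.15), and USP47, a deubiquitinase gene, 1523 and 2145 bp, against 1095 and 1178 bp (0.57 ± 0.14). The neighbouring and closely similar ZDHHC11B and ZDHHC11 had 1186 and 1958 bp and 407 and 1114 bp at day 10, against 786 and 783 bp and 0 and 0 bp at day 4, and reads may have been split between them. In all 10 of these genes replicate 2 had the higher day 10 value. Only NPL among them had a DMSO difference of the opposite sign, and ZDHHC11 had 548 and 1228 bp in DMSO at day 10, against 0 and 325 bp at day 4.

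**Figure D5:**
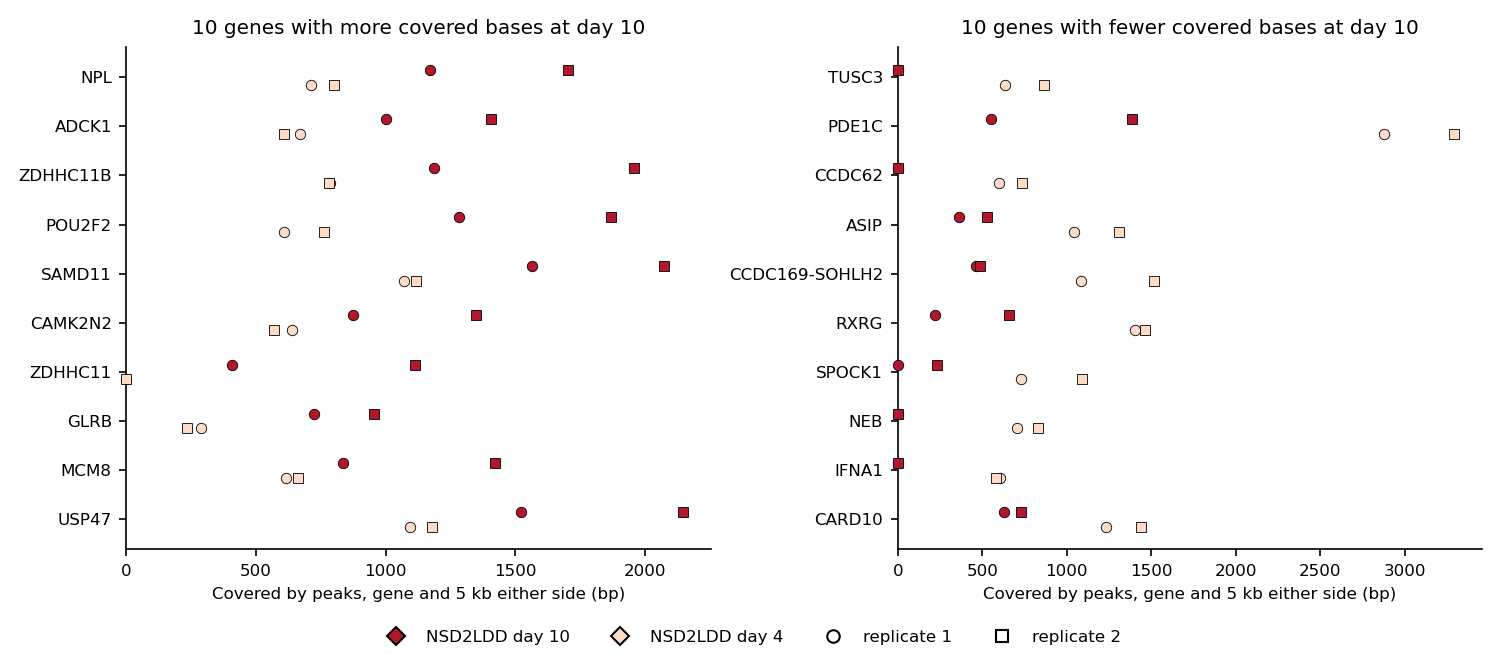
Bases covered by peaks within the gene and 5 kb either side, in bp, in the NSD2LDD libraries of KMS11 for the 10 genes with the smallest p in each direction whose days did not overlap. Dark points are day 10, pale points day 4, circles replicate 1 and squares replicate 2, and none of the 20 genes passed the test.

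The genes of the translocation passed no test between the days. NSD2, whose window overlaps that of 1 other gene, had 1225 and 868 bp at day 10, against 869 and 1716 bp at day 4 (-0.23 ± 0.36, limma adjusted p = 0.985). FGFR3 had 673 and 1263 bp at day 10, against 916 and 1171 bp at day 4 (-0.15 ± 0.18). CCND2, a cyclin gene, had 1586 and 1709 bp at day 10, against 1465 and 1074 bp at day 4 (0.33 ± 0.19), and MYC, a growth regulator gene, 1768 and 2102 bp, against 1662 and 2296 bp (-0.03 ± 0.17). Over the list of 15 genes tied to t(4;14) and NSD2, 0 had an unadjusted p under 0.05 in either direction, beside 6.55% of all genes tested. At that share a list of 15 may well hold none. The median log2 difference of the list was 0.03. Peak coverage of NSD2 says nothing of its protein and is no check of the degradation.

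No gene of the plasma cell program passed the test. IRF4, a master transcription factor gene of plasma cells, had 1009 and 1853 bp at day 10, against 1393 and 1463 bp at day 4 (-0.06 ± 0.16). PRDM1, the gene of the repressor BLIMP1, had 1964 and 3827 bp at day 10, against 3749 and 4634 bp at day 4 (-0.58 ± 0.34), and XBP1, a secretory program factor gene, 2055 and 2336 bp, against 2015 and 2097 bp (0.07 ± 0.15). The days overlapped for IRF4 and XBP1 (2055 bp lies below 2097 bp) and for PRDM1. Of the 20 plasma cell genes listed, 18 were tested, with a median of -0.09. POU2F2 and POU2AF1, the gene of its B cell coactivator, had the smallest p, with differences of 0.97 ± 0.20 and -0.59 ± 0.14. The 21 genes of secretion and the unfolded protein response had a median of 0.06, from -0.62 to 0.55, led by ERN1, the gene of the sensor IRE1, at -0.62 ± 0.16, and SEC61A1, a translocon gene, at 0.40 ± 0.14. Of 14 tested B cell genes the median was -0.09, with the transcription factor genes BCL11A at 0.49 ± 0.13 and BACH2 at -0.46 ± 0.15. Among the 20 B cell genes listed, 5 had no peak in the 4 libraries (MS4A1, CD22, CD79B, FCER2 and TCL1A).

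Signalling lists gave no call either. The 28 RAS-MAPK and AP-1 genes had a median of -0.03, with the kinase gene BRAF at -0.45 ± 0.13 and NRAS at -0.47 ± 0.15. The 19 tested NF-kappaB genes had a median of 0.11, with BIRC3 at -0.51 ± 0.20 and the cytokine gene IL6 at 1.32 ± 0.64. IL6 had 769 and 1029 bp at day 10, against 0 and 731 bp at day 4. Its difference thus rests on 1 library without a peak and on the 200 bp added. The 26 tested interferon response genes had a median of -0.12, with IFIT3, an antiviral effector gene, at -0.55 ± 0.19 and IRF9 at -0.43 ± 0.18. Of the 21 antigen presentation genes 3 were lower at an unadjusted p under 0.05 and 0 higher, beside 4.41% lower and 2.15% higher over all genes, with a median of -0.14. HLA-DRA had 292 and 501 bp at day 10, against 658 and 898 bp at day 4 (-0.74 ± 0.21), and HLA-DRB1, which has near-identical paralogs, 0 and 238 bp, against 611 and 538 bp (-1.40 ± 0.52).

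No adhesion or developmental gene passed the test. The 28 tested adhesion and migration genes had a median of 0.03, with CD44, the hyaluronan receptor gene, at -0.64 ± 0.27. L1CAM, a neural adhesion gene, had 627 and 323 bp at day 10, against 0 and 0 bp at day 4, and no fold is given for it. The 30 axon guidance and synaptic adhesion genes had a median of -0.19, with 5 lower and 0 higher at an unadjusted p under 0.05. NRP1, a semaphorin co-receptor gene, had 284 and 410 bp at day 10, against 1356 and 986 bp at day 4 (-1.34 ± 0.47), and NTRK3, a neurotrophin receptor gene, 1745 and 2160 bp, against 2476 and 3118 bp (-0.49 ± 0.16). The 36 tested developmental regulators had a median of -0.06, with 4 lower and 1 higher, led by TBX15 at -0.78 ± 0.19 and HOXA10 at -0.60 ± 0.17. These counts stand beside 4.41% lower and 2.15% higher over all genes.

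No member of the remaining lists passed, and the median of all genes tested was -0.0074. The 32 cell cycle genes had a median of 0.02, with E2F2 at -0.65 ± 0.20 and PCNA at 0.25 ± 0.12. The 25 tested BCL2 family and apoptosis genes had a median of -0.08, with BID, a death agonist gene, at -0.78 ± 0.17 and APAF1, the apoptosome gene, at 0.55 ± 0.15. The 29 writers and erasers of lysine 36 and lysine 27 methylation had a median of -0.01, with NSD3, a paralog of NSD2, at 0.38 ± 0.13 and the demethylase gene KDM4B at 0.44 ± 0.20. The 30 housekeeping genes had a median of 0.03, with GAPDH at -0.43 ± 0.18 and RPS18 at -0.23 ± 0.14. Markers of 4 other cell types gave no call. Medians were -0.02 for 15 tested T and NK genes, -0.06 for 9 myeloid, -0.0037 for 9 erythroid and megakaryocyte and -0.0011 for 11 stromal and endothelial genes, and their summed covered bases at day 10 (14015 and 23459, 5398 and 9024, 7356 and 9322, 10291 and 16741 bp) spanned those at day 4 (18458 and 19983, 6787 and 7614, 7537 and 8101, 13427 and 13366 bp). The smallest p in these 4 lists belonged to CD3G and LEF1 (-0.49 ± 0.22 and -0.33 ± 0.16), ITGAM and CEBPE (-0.48 ± 0.34 and -0.62 ± 0.52), EPOR and KLF1 (0.12 ± 0.14 and 0.09 ± 0.13), and PDGFRA and ACTA2 (-0.44 ± 0.14 and -0.26 ± 0.17). CEBPE had 0 and 638 bp at day 10, against 376 and 471 bp at day 4, so its difference depends on the 200 bp added. No peak in the 4 NSD2LDD libraries was found for 6 of 21 listed T and NK genes (CD3D among them) and 7 of 18 myeloid genes (CD14). The same held for 6 of 16 erythroid and megakaryocyte genes (GATA1) and 8 of 20 stromal and endothelial genes (LUM). Most members of each list thus had a peak in at least 1 of these libraries.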

How the data were processed

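The authors deposited 1 peak list per library on hg38. Per the submitters' processing notes, fastp, BWA, SAMtools, Picard, MACS3 and deepTools were used, while the sources used here give no versions, Tn5 shift, duplicate removal or calling settings. In the deposited lists, the fold enrichment of a peak is a ratio over the caller's background and its -log10 q is from the caller. Both served only to describe, rank or filter peaks within a list. The smallest deposited -log10 q was 2.00.

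Covered bases of each merged region (and of each gene with 5 kb either side) were computed per library, with gene positions and starts from RefSeq GRCh38.p14. Values were log2 after adding 100 bp (regions) or 200 bp (genes), less the library median over features called in all 8 libraries. Features called in at least 2 of the 4 NSD2LDD libraries entered limma 3.58.1 (with trend, robust, 4 residual degrees of freedom) in R 4.3.3, with Benjamini-Hochberg adjustment at 0.05. Scripts were tested on simulated data. Python 3.11.15, numpy 2.4.6, pandas 2.3.3 and scipy 1.17.1 made the other values, including exact two-sided permutation tests over libraries.

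Named regions were to be the 6 called with the smallest p per direction, or else the 6 largest called on 1 day only. Named genes were to be the 10 with the smallest p per direction and no overlap between days, the 2 with the smallest p in each of 19 lists, and NSD2, FGFR3, CCND2, MYC, IRF4, PRDM1 and XBP1. The members and lists were chosen with earlier results of these data known. Scaling, thresholds, filters, libraries in the fit and left-out libraries were varied.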

Additional observations from a re-analysis of the deposited data

How the results depend on the processing

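Against 3 regions under NSD2LDD, 0 were called without scaling, with peaks of -log10 q of 5 or more, with a minimum of 3 of 4 libraries, with the 4 NSD2LDD libraries alone, with 12 KMS11 libraries and with log2 peak number as a covariate. Under the minimum of 3 of 4 libraries the regions nearest SOX9 and DMRTA1, with peaks in 2 of 4, were not tested. They were also not tested with an NSD2LDD day 4 library left out. With 300 bp added 1 was called, with a minimum of 1 of 4 libraries 15, without trend and robust 935, and with all 22 libraries 1120. Quantile normalization, 30 bp added, lists of equal length and the 8-list merge gave 2 to 4. The cause of these shifts was not tested. Windows reaching 100 bp to either side of the summits take few distinct values, so many regions have nearly no spread, and they called 1017 regions. Leaving out 1 library gave 0 to 182 for NSD2LDD, 0 to 1 for DMSO and 0 to 2 for the difference of the changes. For DMSO the count was 1 with a minimum of 1 of 4 libraries, 165 with 22 libraries, 160 without trend and robust and 519 for summit windows. For the difference of the changes it was 1, 85, 0 and 906. For genes, 22 libraries gave 3 under NSD2LDD and 1 in DMSO, summit windows gave 184, 128 and 222 for the 3 comparisons, and leaving out 1 library gave 0 to 1 under NSD2LDD and 0 elsewhere.

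The replicate numbers did not pair the NSD2LDD libraries of the days: their deviations from the group means correlated at 0.04 over regions and 0.08 over genes. The replicate block gave 0 regions and 0 genes under NSD2LDD (adjusted p for the regions at SOX9, DMRTA1 and SLC44A1 0.0523, 0.118 and 0.132). Same-numbered NSD2LDD and DMSO libraries of day 10 deviated together (0.20 and 0.27).

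With 1 library of a day left out, day 10 only regions numbered 1951 to 4825 and day 4 only regions 2332 to 4373, since fewer libraries then decide. The contrast of these sets was 34.6 points for DMSO day 10 minus day 4 (18.2 to 24.6 with a library left out), 30.3 for TKO minus day 0 (13.1 to 28.4, 33.9 with equal lists, 23.4 with 50% covered) and 2.40 for KMS34 (-0.533 to 2.87). The share of regions lost in TKO was -12.5 points for NSD2LDD day 10 minus day 4 (-13.7 to -11.3, -14.2 with equal lists, -21.2 with 50% covered), and that of regions gained in TKO was 12.5 points (3.52 to 21.6, 1.59 with 50% covered). Alternatives for these TKO shares were chosen after seeing the data. Peak number differed by 315 (-742 to 1372) and covered length by -0.93 Mb (-5.51 to 3.65).

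Named values that changed sign, none of them past the test, were these. Gene ends gave CCDC169-SOHLH2 0.153, USP47 -0.00638, IRF4 0.082, ERN1 0.0231, BCL11A -0.141, NRAS 0.0931, APAF1 -0.0169 and KDM4B -0.023. Summit windows gave CARD10 0.00894, NSD2 0.208, MYC 0.208, NTRK3 0.161, PDGFRA 0.208 and ACTA2 0.208. Peaks of -log10 q of 5 or more gave MYC 0.098 and CEBPE 0.142. With 1 library left out, NSD2 ranged from -0.641 to 0.178, FGFR3 from -0.319 to 0.0239, MYC from -0.216 to 0.145, IRF4 from -0.245 to 0.117, XBP1 from -0.0493 to 0.184 and CEBPE from -1.45 to 0.212.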
